A study of Mus musculus with 6 samples.

Results

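Toll-like receptors, and the proteins that load lipopolysaccharide onto TLR4, were followed in mouse heart after myocardial infarction (MI). This was done through 10 genes chosen by symbol: *Tlr1*, *Tlr2*, *Tlr3*, *Tlr4*, *Tlr6*, *Tlr7*, *Tlr9*, *Tlr13*, *Cd14* and *Ly96*. They were 10 of the 17441 genes listed in at least 1 library, and all 10 passed the filter on low values that left 13120 genes for testing. RNA came from heart tissue below the ligature of male C57BL/6-background mice, 12 weeks old by the labels, 3 days after surgery. WT Sham mice were wild type and had a sham operation, WT MI mice were wild type and had the coronary artery ligated, and Card9 KO MI mice had the same ligation with the *Card9* gene, which encodes a myeloid signalling adaptor, knocked out. Each group had 2 libraries. Sham-operated *Card9* KO mice were not analysed here, so that genotype and ligation cannot be told apart in Card9 KO MI against WT Sham. The labels do not say whether each library was 1 mouse or a pool, nor whether the libraries of a group were separate animals, so p-values measure only the spread between these libraries, which may be technical.

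Toll-like receptors are membrane proteins whose leucine-rich ectodomain binds products of microbes or of damaged cells and whose cytoplasmic TIR domain recruits adaptors, MYD88 for nearly all of them and TICAM1 for TLR3 and internalized TLR4. TLR1, TLR2, TLR4 and TLR6 face the outside of the cell. TLR3, TLR7, TLR9 and TLR13 bind nucleic acids in endosomes, which they reach with the chaperone UNC93B1. CD14 hands lipopolysaccharide to a complex of TLR4 with MD-2, the product of *Ly96*. In the infarcted heart these receptors are studied for their response to material released by dying cardiomyocytes, and many of them are abundant in macrophages, monocytes and neutrophils.

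Levels are FPKM, fragments scaled to the length of the gene and to the fragments of its library, which can be compared between genes. The libraries held an estimated 2972787 to 4239732 fragments, and 3 fragments on a 2 kb transcript corresponded to an FPKM of 0.354 to 0.505. *Card9* stood at 0.99 and 1.03 FPKM in WT Sham, 3.39 and 5.08 after MI in WT mice, and 9.85 and 6.94 in the group labelled Card9 KO MI. The targeted gene was thus not lower where the label says it was knocked out, and every direction between the infarct groups rests on the label. Card9 KO MI is used as the name of the 2 libraries so labelled. Whether the deposited values cover a deleted part of the gene is not given in the sources used here. Of the genes tested, 27.7% were called higher and 9.39% were called lower in WT MI, relative to WT Sham (limma, adjusted p below 0.05). For Card9 KO MI against WT MI these shares were 0.816% and 0.587%, and for Card9 KO MI against WT Sham 34.8% and 14.3%. At an unadjusted p under 0.05 (limma), 2629 of the 13120 genes tested differed in Card9 KO MI against WT MI. Counts at an unadjusted p between the infarct groups given below stand beside that number. FPKM are relative to the rest of a library, and the median log2 change of all tested genes between WT Sham and WT MI moved from 0.19 as deposited to 0.0039 when scaled by the upper quartile and -0.09 when quantile normalized. The split of calls moved with it, from 3637 higher and 1232 lower to 2603 and 2159 under the former and 2198 and 2447 under the latter. Relative to WT Sham, Card9 KO MI had splits of 4569 and 1875, 3230 and 2884, and 2755 and 3444 in the same order.

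The receptors and co-receptors were higher in the infarct. Of the 10 genes, 8 rose in WT MI against WT Sham, against 27.7% of all tested genes, and none fell. These were *Tlr1*, *Tlr2*, *Tlr4*, *Tlr6*, *Tlr7*, *Tlr9*, *Tlr13* and *Cd14*. The median log2 fold change of the 10 genes was 1.19, and that of all genes tested 0.19. In 9 of the 10, both WT MI libraries stood above both WT Sham libraries, which held for 48.3% of all genes tested. The calls for *Tlr4* and *Tlr6* depended on the processing. In the hearts labelled Card9 KO MI, 2 of the 10 rose above WT MI, *Tlr7* and *Tlr9*, against 0.816% of all genes tested, and none fell. Neither call held when any 1 of the 6 libraries was left out.

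**Figure D1:**
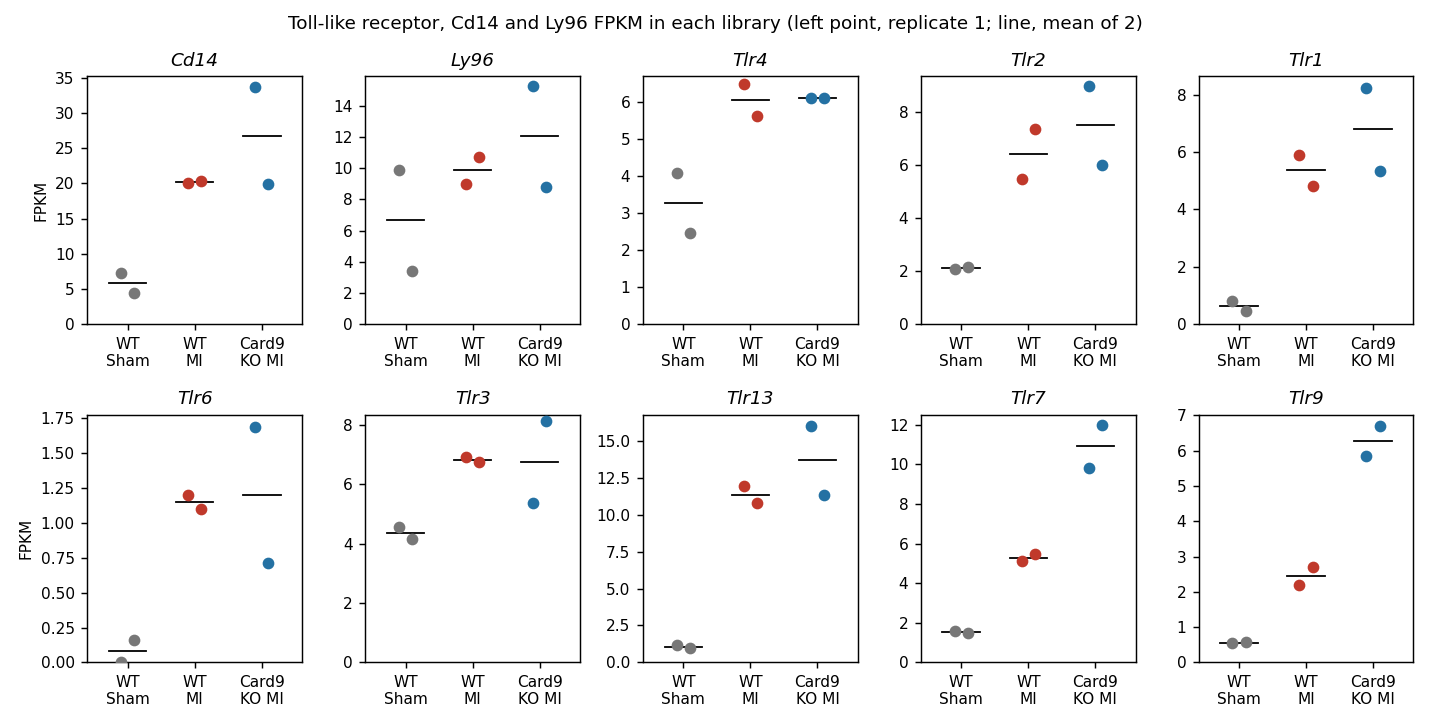
FPKM of the 10 genes in each of the 6 libraries (vertical axis, FPKM from 0, with its own linear scale in each panel; points, single libraries, replicate 1 to the left; lines, means of 2), by group (horizontal axis). The points of Tlr7 and Tlr9 form 3 separate levels, whereas the 2 infarct groups overlap for the other 8 genes.

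In the lipopolysaccharide branch the values of the co-receptor *Cd14*, its partner *Ly96* and the receptor *Tlr4* differed in how far they moved. *Cd14* had the highest mean level of the 10 genes in both infarct groups. It stood at 7.23 and 4.44 FPKM in WT Sham hearts, 20.12 and 20.35 in WT MI hearts, and 33.74 and 19.85 in those labelled Card9 KO MI. The WT MI libraries lay above both sham libraries, while the libraries labelled Card9 KO MI lay on either side of them. *Cd14* rose 3.47-fold in mean FPKM from WT Sham to WT MI, a log2 change of 1.67 ± 0.27 (SE, n = 2 per group; adjusted p = 0.00249, limma), and it was called in all 16 other settings. Between the infarct groups its log2 difference was 0.34, with a 95% interval from -0.28 to 0.96 (adjusted p = 0.526).

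*Tlr4* (mm9 chromosome 4, 66488618 to 66591318, plus strand) was at 4.08 and 2.47 FPKM in WT Sham hearts, 6.50 and 5.64 in WT MI hearts, and 6.11 and 6.11 in those labelled Card9 KO MI. All 4 infarct libraries were above both sham libraries, and the 2 infarct groups overlapped. The log2 change from WT Sham to WT MI was 0.75 ± 0.21 (SE), 1.85-fold in mean FPKM, with an adjusted p of 0.0252. It was called in 10 of 16 other settings. With quantile normalization it was 0.43 (adjusted p = 0.138), and without WT MI replicate 1, WT MI replicate 2 or WT Sham replicate 2 the adjusted p was 0.129, 0.0662 and 0.111. The difference between the infarct groups was 0.01 on the log2 scale (95% interval -0.47 to 0.49).

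*Ly96* (chromosome 1, 16678537 to 16699686, plus strand) did not pass the test in any comparison. Its levels were 9.86 and 3.43 FPKM in WT Sham hearts, 9.0 and 10.73 in WT MI hearts, and 15.29 and 8.81 in those labelled Card9 KO MI. WT Sham replicate 1 was as high as the WT MI libraries, and the 3 groups overlapped. The log2 change from WT Sham to WT MI was 0.64 (95% interval -0.30 to 1.58, adjusted p = 0.251), and 1 library decided it: without WT Sham replicate 1 it was 1.29 (adjusted p = 0.0203), and without WT Sham replicate 2 it was -0.0039. The gene is short, with 603 exonic bases, and its values stood for an estimated 6.15 to 39.1 fragments.

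Among the surface receptors for lipoproteins, *Tlr2* pairs with the product of *Tlr1* or *Tlr6*. *Tlr2* (chromosome 3, 83640195 to 83645689, minus strand) was at 2.08 and 2.17 FPKM in WT Sham hearts, 5.48 and 7.39 in WT MI hearts, and 9.01 and 6.03 in those labelled Card9 KO MI. The infarct libraries were all above the sham libraries, and the 2 infarct groups overlapped. *Tlr2* rose 3.03-fold from WT Sham to WT MI (log2 change 1.24 ± 0.22, SE; adjusted p = 0.00395) and was called in all 16 other settings. The log2 difference of Card9 KO MI from WT MI was 0.19 (95% interval -0.32 to 0.70).

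*Tlr1* (chromosome 5, 65316050 to 65324000, minus strand) and *Tlr6* (chromosome 5, 65344345 to 65351287, minus strand) are neighbours 20344 bases apart. Their coding sequences share a run of 229 identical bases, bases 1468 to 1696 of *Tlr1* and 1507 to 1735 of *Tlr6*. Of all stretches of 50 bases in them, 19.4% of those of *Tlr1* and 19.1% of those of *Tlr6* also occur in the other gene. No other pair among the 10 genes and *Tlr8* shared an identical run of more than 16 bases. The end of the shared run is shown because a fragment from it fits either gene. Below are coding bases 1637 to 1756 of *Tlr1* and 1676 to 1795 of *Tlr6* from the mm9 genome, read 5′ to 3′ on the coding strand, with the 2 differing bases of 120 in capitals.
Tlr1: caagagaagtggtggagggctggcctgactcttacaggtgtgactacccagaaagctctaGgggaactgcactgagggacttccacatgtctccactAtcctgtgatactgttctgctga
Tlr6: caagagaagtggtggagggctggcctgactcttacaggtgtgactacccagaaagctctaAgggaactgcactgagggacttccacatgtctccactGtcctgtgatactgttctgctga

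How the counting treated such fragments is not given in the sources used here, and the level of each gene of this pair is uncertain to that extent. *Tlr1* was at 0.81 and 0.45 FPKM in WT Sham hearts, 5.91 and 4.81 in WT MI hearts, and 8.25 and 5.34 in those labelled Card9 KO MI. *Tlr1* rose 8.51-fold in mean FPKM from WT Sham to WT MI (log2 change 1.97 ± 0.24, SE; adjusted p = 0.000695), in all 15 other settings that could be fitted with it. Its infarct groups overlapped, with a log2 difference of 0.27 (95% interval -0.28 to 0.83).

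*Tlr6* had the lowest mean level of the 10 genes in every group. It was not listed in WT Sham replicate 1 and was at 0.16 FPKM in replicate 2, an estimated 1.24 fragments. It was at 1.20 and 1.10 FPKM in WT MI hearts and 1.69 and 0.71 in those labelled Card9 KO MI, an estimated 7.57 to 18.7 fragments in the 4 infarct libraries. No fold of means is given because both sham values were under the FPKM of 3 fragments on its exons, 0.368 and 0.388. The log2 change from WT Sham to WT MI was 1.00 ± 0.29 (SE; adjusted p = 0.0282), and with 0.1 or 5 FPKM added in place of 1 it was 2.95 and 0.28. It was called in 10 of 15 other settings and lost with quantile normalization (adjusted p = 0.172) and without any 1 of the 4 libraries compared (adjusted p from 0.0638 to 0.109). In Card9 KO MI against WT MI its log2 difference was -0.003, with a 95% interval from -0.67 to 0.66.

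The endosomal receptors took different courses. *Tlr13*, which in mice recognizes bacterial ribosomal RNA, had the largest log2 change of the 10 genes between WT Sham and WT MI. It lies on chromosome X, 103338543 to 103355832, plus strand, and stood at 1.17 and 0.98 FPKM in WT Sham hearts, 11.91 and 10.80 in WT MI hearts, and 16.01 and 11.36 in those labelled Card9 KO MI. The sham values stood for an estimated 15.0 and 11.9 fragments. *Tlr13* rose 10.6-fold (log2 change 2.57 ± 0.19, SE; adjusted p = 8.36e-05) and was called in all 16 other settings. With a rank of 7 among the 10 genes in WT Sham, it was second to *Cd14* in both infarct groups. Its infarct groups overlapped (log2 difference 0.23, 95% interval -0.20 to 0.67).

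*Tlr3*, the receptor for double-stranded RNA, lies on chromosome 8, 46481019 to 46495962, minus strand. It was at 4.56 and 4.15 FPKM in WT Sham hearts, 6.91 and 6.75 in WT MI hearts, and 5.37 and 8.14 in those labelled Card9 KO MI. All 4 infarct libraries stood above both sham libraries, but the log2 change of 0.55 ± 0.20 (SE, 1.57-fold) from WT Sham to WT MI missed the threshold (adjusted p = 0.0608). It passed in 3 of 16 other settings: with a fit on the 2 groups compared (adjusted p = 0.0334) and without either library labelled Card9 KO MI (0.0319 and 0.0344). Between the infarct groups the log2 difference was -0.04 (95% interval -0.49 to 0.42).

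*Tlr7*, the receptor for single-stranded RNA, and *Tlr9*, the receptor for unmethylated CpG DNA, rose from WT Sham to WT MI and were higher again in the libraries labelled Card9 KO MI. *Tlr7* (chromosome X, 163742861 to 163768490, minus strand) was at 1.59 and 1.48 FPKM in WT Sham hearts, 5.11 and 5.45 in WT MI hearts, and 9.84 and 11.98 in those labelled Card9 KO MI, the last of these an estimated 170 and 200 fragments. *Tlr9* (chromosome 9, 106124929 to 106129207, plus strand) was at 0.54 and 0.57 FPKM, 2.19 and 2.69, and 5.85 and 6.71 in the same order, with an estimated 86.1 and 95.3 fragments in the last group. The 3 groups did not overlap for either gene.

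From WT Sham to WT MI, *Tlr7* rose 3.44-fold (log2 change 1.31 ± 0.16, SE; adjusted p = 0.000836) and *Tlr9* 4.40-fold (1.14 ± 0.19; adjusted p = 0.00297), with a call in every other setting that could be fitted. From WT MI to Card9 KO MI, *Tlr7* rose 2.07-fold in mean FPKM (log2 change 0.92 ± 0.16, SE, 95% interval 0.54 to 1.30; adjusted p = 0.0482). *Tlr9* rose 2.57-fold (1.08 ± 0.19, SE, 95% interval 0.64 to 1.52; adjusted p = 0.0472). Both adjusted p-values lay just under the threshold of 0.05. Over the other settings they ranged from 0.0326 to 0.278 for *Tlr7*, with 2 of 16 settings below the threshold, and from 0.0253 to 0.276 for *Tlr9*, with 5 of 15. The sizes moved less: without any 1 library the log2 change was 0.79 to 1.05 for *Tlr7* and 0.98 to 1.19 for *Tlr9*.

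The other 8 genes did not pass the test in this comparison, and each had overlapping infarct groups. Non-overlap with higher values in Card9 KO MI held for 2 of the 10 genes and for 30.8% of all genes tested. For *Cd14*, *Ly96*, *Tlr1*, *Tlr2*, *Tlr6* and *Tlr13* replicate 1 of the Card9 KO MI group was the higher of its 2 libraries, and for *Tlr3*, *Tlr7* and *Tlr9* it was the lower. Without that library the log2 difference was -0.03 for *Cd14*, -0.07 for *Tlr2* and 0.00087 for *Tlr1*. The 8 intervals still held differences of up to 0.42 (*Tlr3*) to 1.16 (*Ly96*) on the log2 scale.

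**Figure D2:**
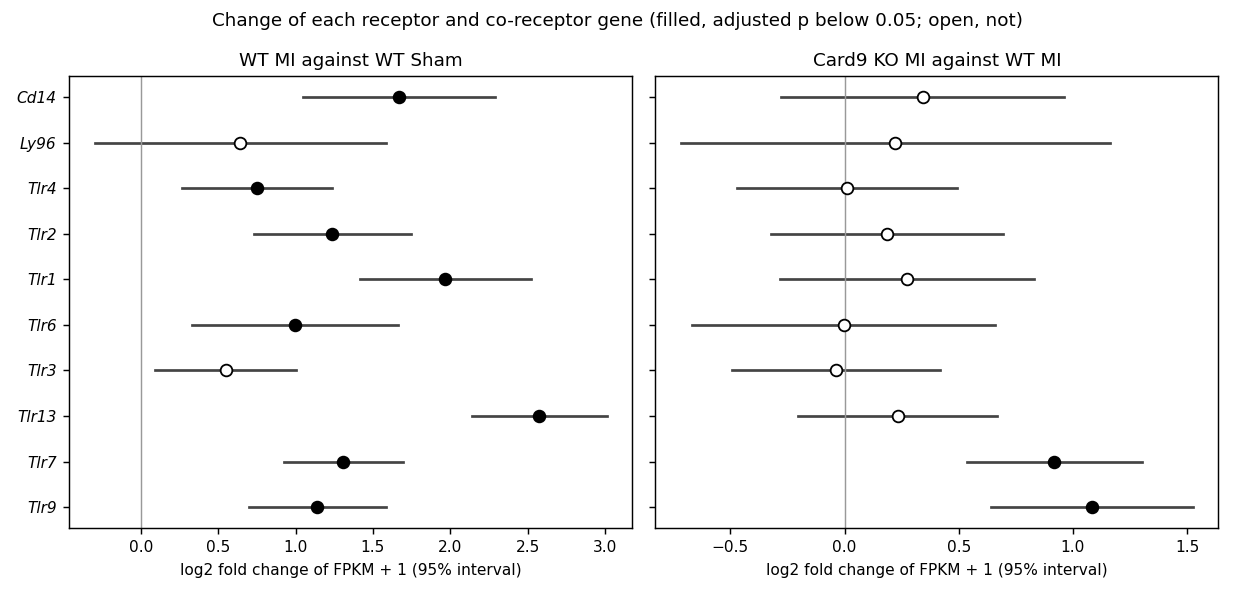
Log2 difference in log2(FPKM + 1) for each of the 10 genes (vertical axis) in WT MI against WT Sham and in Card9 KO MI against WT MI (horizontal axis, log2 units), with points for the limma estimates and bars for their 95% intervals. The first comparison runs from 0.55 for Tlr3 to 2.57 for Tlr13, and in the second only the intervals of Tlr7 and Tlr9 exclude 0; both comparisons share the 2 WT MI libraries.

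Against WT Sham, 8 of the 10 genes rose in Card9 KO MI (34.8% of all genes tested did), and again *Tlr3* (adjusted p = 0.0621) and *Ly96* (0.112) did not pass. In 9 of the 10 genes the groups did not overlap, against 51.6% of all genes. The changes were largest for *Tlr13* (12.7-fold, log2 change 2.81), *Tlr1* (10.8-fold, 2.24), *Tlr7* (7.11-fold, 2.23) and *Tlr9* (11.3-fold, 2.22). The sham values stood for an estimated 6.72 and 3.55 fragments for *Tlr1* and 5.86 and 5.88 for *Tlr9*. With 0.1 FPKM added in place of 1, the log2 changes of these genes were 3.54, 3.25, 2.75 and 3.28. That of *Tlr6* (2.90) was then above that of *Tlr7*. *Cd14* rose 4.59-fold (2.01) and *Tlr2* 3.54-fold (1.42). *Tlr4* (0.76, adjusted p = 0.0183) and *Tlr6* (0.99, adjusted p = 0.0221) were again lost with quantile normalization, at adjusted p-values of 0.189 and 0.227. This comparison shares its sham libraries with the first and its infarct libraries with the second.

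In order of mean level, the 10 genes ran in WT Sham from *Ly96* (6.64 FPKM), *Cd14* (5.83), *Tlr3* (4.36) and *Tlr4* (3.28) through *Tlr2* (2.12), *Tlr7* (1.54) and *Tlr13* (1.07) to *Tlr1* (0.63), *Tlr9* (0.56) and *Tlr6* (0.08). Of neighbours in this order, *Ly96* and *Cd14*, *Cd14* and *Tlr3*, and *Tlr1* and *Tlr9* overlapped in range, and *Tlr4* reached into the wide range of *Ly96*. In WT MI the order was *Cd14* (20.2), *Tlr13* (11.4), *Ly96* (9.87), *Tlr3* (6.83), *Tlr2* (6.43), *Tlr4* (6.07), *Tlr1* (5.36), *Tlr7* (5.28), *Tlr9* (2.44) and *Tlr6* (1.15). From *Tlr3* down to *Tlr7*, neighbours in this order overlapped in range. In Card9 KO MI *Tlr7* (10.9) came after *Cd14* (26.8), *Tlr13* (13.7) and *Ly96* (12.0), and the ranges of *Tlr13*, *Ly96* and *Tlr7* overlapped. The 4 endosomal receptors together held 7.86 and 7.18 FPKM in WT Sham hearts, 26.12 and 25.69 in WT MI hearts, and 37.07 and 38.19 in those labelled Card9 KO MI, and the 4 surface receptors 6.97 and 5.25, 19.09 and 18.94, and 25.06 and 18.19.

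These are levels of whole tissue, in which more cells of a type and more RNA per cell cannot be told apart. The summed macrophage markers rose along with most of the 10 genes from WT Sham to WT MI. Between the infarct groups the sum was higher without overlap in Card9 KO MI. Of the 10 genes, *Tlr7* and *Tlr9* alone did the same. The 12 macrophage markers, all of them tested, summed to 284 and 253 FPKM in WT Sham hearts, 856 and 1038 in WT MI hearts, and 1781 and 1325 in those labelled Card9 KO MI, of which the 3 C1q genes made up 65.3% to 75.6%. In WT MI against WT Sham 10 of the 12 rose (median log2 change 1.56). In Card9 KO MI against WT MI none of the 12 rose (0 by limma, 6 at an unadjusted p under 0.05). One gene fell, *Lyve1*, a marker of resident macrophages, from 12.57 and 14.38 to 4.70 and 6.84 FPKM. Its log2 change was -1.11 (limma adjusted p = 0.0367), and it was called in 6 of 16 other settings. By sign 9 of the 12 were higher and 3 lower, and the median log2 change was 0.66. Among those lower, *Cd163* went from 10.34 and 5.59 to 3.37 and 3.10 FPKM (log2 difference -1.03, limma adjusted p = 0.0939). The 5 pan-leukocyte markers summed to 46.0 to 62.2, 320 to 328, and 384 to 534 FPKM in the 3 groups. The 5 fibroblast markers summed to 391 to 408, 860 to 1166, and 1826 to 1878 FPKM. Between the infarct groups *Col1a1* and *Postn* rose among them (log2 changes 1.06 and 1.57), while *Pdgfra* went from 15.20 and 15.87 to 10.64 and 10.43 FPKM (log2 difference -0.52; adjusted p = 0.0939). The 5 endothelial markers summed to 286 and 283, 297 and 296, and 346 and 348 FPKM in the 3 groups, without overlap. Among them *Pecam1* rose and *Kdr* fell in WT MI against WT Sham, and none passed the test between the infarct groups. Cardiomyocyte markers summed to 39709 to 41315 FPKM in WT Sham, 25227 to 25808 in WT MI and 21290 to 24691 in Card9 KO MI. The part of these cell markers in the changes of the receptors was not tested.

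The 4 monocyte markers summed to 1.51 and 2.48 FPKM in WT Sham hearts, 128 and 110 in WT MI hearts, and 80.9 and 88.8 in those labelled Card9 KO MI, with the fall between the infarct groups in *Chil3* (86.47 and 57.22 to 13.71 and 12.11 FPKM; log2 change -2.36, adjusted p = 0.00729). The other 3 monocyte markers, *Ly6c2*, *Ccr2* and *Plac8*, did not pass the test there but were higher in both Card9 KO MI libraries (log2 differences 0.89, 0.46 and 0.44). The 8 neutrophil markers summed to 7.64 and 5.40, 212 and 93.1, and 59.8 and 46.7. The 6 of them that were tested were all lower without overlap in Card9 KO MI than in WT MI, against 21.9% of all genes tested. Their median log2 difference was -0.61, and none passed the test. *Tlr7* and *Tlr9* are also known from plasmacytoid dendritic cells and B cells. *Siglech*, which marks plasmacytoid dendritic cells, was not listed in any WT library and was at 0.48 and 0.20 FPKM in Card9 KO MI. It was too low to be tested, and 3 fragments on a 2 kb transcript correspond to 0.354 and 0.366 FPKM in these libraries. The 6 dendritic cell markers summed to 6.19 to 7.78 FPKM in WT Sham, 4.83 to 7.36 in WT MI and 7.81 to 9.13 in Card9 KO MI. In WT Sham hearts the 4 B cell markers summed to 2.7 and 1.31 FPKM. The sums were 3.4 and 4.91 FPKM in WT MI hearts and 4.69 and 3.49 in those labelled Card9 KO MI. All infarct libraries thus lay above both sham libraries, and the infarct groups overlapped. Of the 2 B cell markers tested, *Cd79b* was called higher in each infarct group against sham, and neither passed the test between the infarct groups. T cell markers summed to 1.54 to 2.86 FPKM over all 6 libraries. *Ly6g* and *Trac* were not listed in any library.

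Per 100 FPKM of summed macrophage markers, *Tlr13* was at 0.412 and 0.388 in WT Sham and 1.39 and 1.04 in WT MI. *Tlr1*, *Tlr6*, *Tlr9* and *Tlr13* were higher per macrophage marker in both WT MI than in both WT Sham libraries, which held for 5.14% of all genes tested, and *Tlr2*, *Tlr3*, *Tlr4* and *Ly96* were lower, as were 86.7% of all genes. *Tlr7* and *Cd14* overlapped. For *Tlr6* both sham values were under the FPKM of 3 fragments, and per summed pan-leukocyte markers its WT MI and WT Sham libraries overlapped. *Tlr9* was at 0.190 and 0.226 in WT Sham hearts, 0.256 and 0.259 in WT MI hearts, and 0.328 and 0.506 in those labelled Card9 KO MI, 1.62-fold higher in the last than in WT MI. It was the single gene of the 10 with a higher ratio in both libraries labelled Card9 KO MI, against 2.39% of all genes tested. *Tlr7* was at 0.597 and 0.525 in WT MI hearts and 0.553 and 0.904 in those labelled Card9 KO MI and overlapped. *Tlr2*, *Tlr3*, *Tlr4*, *Tlr6*, *Tlr13*, *Cd14* and *Ly96* had lower ratios in Card9 KO MI, as did 75.8% of all genes tested. Per summed pan-leukocyte markers both *Tlr7* and *Tlr9* were higher in both Card9 KO MI libraries than in both WT MI libraries, as were 4.5% of all genes tested. In WT MI both were lower than in WT Sham by this measure, as were 92.2% of all genes. No test was run on these ratios, which carry the spread of their denominator.

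**Figure D3:**
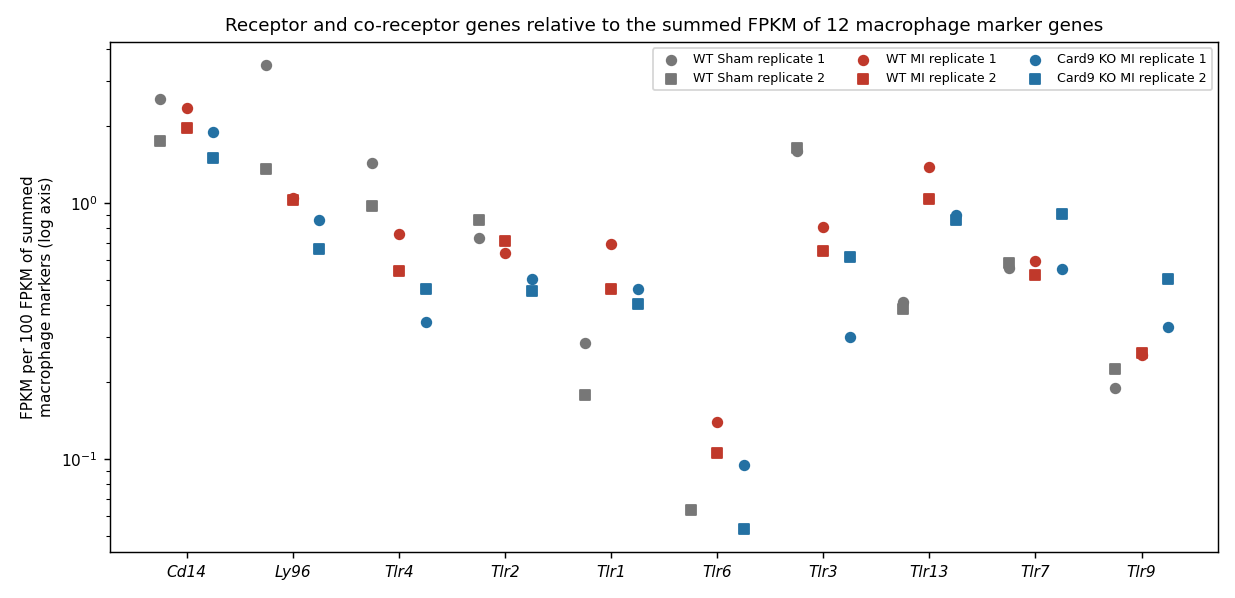
FPKM of each of the 10 genes per 100 FPKM of the 12 summed macrophage markers (vertical axis, log scale) in each library (points; colours, groups); Tlr6 of WT Sham replicate 1 is 0 and is not drawn. For Tlr9 both libraries labelled Card9 KO MI (0.328 and 0.506) lie above both WT MI libraries (0.256 and 0.259), and for Tlr13 both WT MI libraries lie above both WT Sham libraries.

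The profiles of *Tlr7* and *Tlr9* over the 6 libraries were the closest pair among the 10 genes, with a root mean square difference of 0.094 between their log2(FPKM + 1) values, each centred on its own mean. The next pair was *Tlr1* and *Cd14*, at 0.179. Of all genes tested, the nearest to *Tlr7* was *Tlr8* (0.083), followed by *Tlr9*, and the median over all genes was 0.844. For *Tlr9* the nearest genes were *Clca3a1* (0.079) and *Tlr8* (0.091). *Tlr8* is the neighbour of *Tlr7*, 40599 bases away on chromosome X (163680626 to 163702261, minus strand), and encodes an endosomal receptor related to TLR7. Its levels were 0.60 and 0.62 FPKM in WT Sham hearts, 2.65 and 3.12 in WT MI hearts, and 6.14 and 6.24 in those labelled Card9 KO MI, without overlap between the groups. It rose 4.73-fold from WT Sham to WT MI (log2 change 1.27; adjusted p = 0.00142) and missed the threshold in Card9 KO MI against WT MI (log2 difference 0.89; adjusted p = 0.0603). *Tlr7* and *Tlr8* shared no identical coding run of more than 13 bases.

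The nearest profiles to *Tlr13* were *Vim*, *Alox5ap* and *Efhd2* (0.086, 0.086 and 0.111). *Vim* encodes the intermediate filament vimentin and *Alox5ap* a membrane protein of leukotriene synthesis. *Tlr2* was nearest to *Rfc3*, *Calml4* and *Myd88* (0.058, 0.065 and 0.071), the last of them its own adaptor, and *Cd14* to *Ccn5*, *Sec61b* and *Irf5* (0.075, 0.099 and 0.101). *Tlr1* was nearest to *Plvap*, *Sirpb1a* and *Lig1* (0.077, 0.092 and 0.094), *Tlr4* to *Chrnb1* (0.055), *Tlr3* to *Prkd1* (0.045), *Tlr6* to *Fam20c* (0.060) and *Ly96* to *Sac3d1* (0.125). With 6 libraries in 3 groups, many genes share such a profile.

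Promoter sequences, 250 bases before to 50 after an annotated start, were found for 6 of the 10 genes in a RefSeq table of GRCm38.p6, in 8 entries. *Tlr4*, *Tlr7*, *Cd14* and *Ly96* had no entry. They were searched on both strands for GAGGAA, the core bound by the macrophage and neutrophil factor encoded by *Spi1*, since *Spi1* itself rose from 9.82 and 7.24 FPKM in WT Sham to 40.08 and 44.30 in WT MI (log2 change 2.19; adjusted p = 0.000277). GAGGAA was found in an entry of 3 of the 6 genes, *Tlr1*, *Tlr9* and *Tlr13*, and in 28.3% of all 32851 promoters of the table. For this and the other motifs, genes were counted by any of their entries and the share over all promoters by single entries. They are therefore not like measures. The promoters of *Tlr9* (chr9:106222348-106222647, plus strand) and *Tlr13* (chrX:106143025-106143324, plus strand) in GRCm38.p6 are given 5′ to 3′, since *Tlr9* differed between the infarct groups and *Tlr13* changed most with ligation, with GAGGAA or its reverse complement in capitals.
Tlr9: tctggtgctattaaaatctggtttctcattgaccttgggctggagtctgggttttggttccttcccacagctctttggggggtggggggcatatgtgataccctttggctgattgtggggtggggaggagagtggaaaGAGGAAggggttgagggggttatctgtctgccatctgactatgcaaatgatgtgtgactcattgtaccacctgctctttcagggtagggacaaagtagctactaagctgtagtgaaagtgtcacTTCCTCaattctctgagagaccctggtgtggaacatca
Tlr13: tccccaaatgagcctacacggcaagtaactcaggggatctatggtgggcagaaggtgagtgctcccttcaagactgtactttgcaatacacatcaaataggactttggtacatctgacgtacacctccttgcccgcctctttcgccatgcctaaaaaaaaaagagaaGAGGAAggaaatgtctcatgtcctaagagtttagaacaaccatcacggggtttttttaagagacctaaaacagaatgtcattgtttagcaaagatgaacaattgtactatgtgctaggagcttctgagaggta

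*Tlr9* held 2 matches, 112 bases before and 12 after the start, and *Tlr13* 1 match, 83 bases before it. The AP-1 motif TGANTCA was found in *Tlr9* alone among the 8 entries, 58 bases before the start and apart from both GAGGAA matches, and in 7.81% of all promoters. Of the other motifs searched, the NF-κB motif (GGG and CC with 5 bases between them) was found in entries of *Tlr2*, *Tlr3* and *Tlr6* and in 50.8% of all promoters, and that of interferon regulatory factors (GAAA repeated after 2 bases) in 1 entry of *Tlr6* and 3.44% of all. These matches are descriptions of the letters, with no measurement of binding.

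The pathway around the receptors was described with 9 lists of 76 further genes, of which 70 were tested. In WT MI against WT Sham 41 rose and 1 fell, with a median log2 change of 0.79. Of all genes tested 27.7% rose and 9.39% fell there, and these shares also stand beside the counts of each list below. In Card9 KO MI against WT MI 2 rose and none fell, with a median of 0.18, against 0.816% and 0.587% of all genes tested. Against WT Sham 46 rose and 2 fell in Card9 KO MI, against 34.8% and 14.3% of all genes tested.

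Upstream of the receptors, all 7 endogenous ligands rose from WT Sham to WT MI. *Tnc*, a matricellular protein, went from 1.14 and 0.87 to 67.36 and 66.83 FPKM (log2 change 5.09), and *S100a9* and *S100a8*, which encode the subunits of calprotectin and also served as neutrophil markers, changed by 4.75 and 4.22. *Fn1*, fibronectin, rose by 3.54 and was the single ligand that rose again in Card9 KO MI against WT MI, from 149 and 165 to 361 and 283 FPKM (log2 change 1.02; adjusted p = 0.0213). Of the 4 accessory genes 2 rose and 1 fell in WT MI. *Cd180* (2.50) and *Ly86* (1.97), which encode a receptor complex built like that of TLR4 with MD-2, rose, and *Cd36*, a fatty acid transporter and a co-receptor of TLR2 with TLR6, fell by 0.42 on the log2 scale. Of the other Toll-like receptors *Tlr8* rose, *Tlr5* did not pass (0.49; adjusted p = 0.133), and *Tlr11* and *Tlr12* were too low to be tested.

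Of the genes that fold, traffic and cleave the receptors, 8 of 9 rose in WT MI, led by *Ctss* (3.27), *Lgmn* (2.20) and *Ctsb* (1.47), lysosomal proteases that cut the ectodomains, and by *Unc93b1* (1.36; adjusted p = 0.000327). *Unc93b1*, without which TLR3, TLR7, TLR9 and TLR13 do not reach endosomes, was at 15.79 and 14.83 FPKM in WT Sham hearts, 41.86 and 40.13 in WT MI hearts, and 74.49 and 56.69 in those labelled Card9 KO MI, with no overlap. Its log2 difference between the infarct groups was 0.65 (adjusted p = 0.0681) and passed in 2 of 16 other settings. All 9 genes of this list had higher values in Card9 KO MI than in WT MI; their median log2 difference was 0.42, but none passed the test (0 by limma, 4 at an unadjusted p under 0.05), and 56.3% of all genes tested had higher values there.

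Downstream, 2 of 5 adaptors rose in WT MI, *Myd88* (1.20) and *Pik3ap1* (1.91), an adaptor that links the receptors to phosphoinositide 3-kinase. *Pik3ap1* rose further in Card9 KO MI, from 8.76 and 7.85 to 15.31 and 17.33 FPKM (log2 change 0.90; adjusted p = 0.0432). The call of *Fn1* was kept in 11 of 16 other settings and that of *Pik3ap1* in 8. Of the 16 kinases and ubiquitin ligases 4 rose in WT MI, a share near the 27.7% of all genes tested: *Ikbke* (1.74), *Ripk1* (1.31), *Irak4* (1.14) and *Irak2* (0.50). Their median of 0.10 lay below that of all genes. Of the 7 transcription factors 5 rose, among them *Irf5* (1.63), *Irf7* (1.37) and *Irf8* (1.27) beside *Spi1*.

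Of the 9 inhibitors of the pathway 3 rose in WT MI, a share near the 27.7% of all genes tested: *Nfkbia* (1.26), *Irak3* (1.15) and *Tnfaip3* (0.65). Of the 11 tested target genes 9 rose, among them the chemokine genes *Ccl2* (4.67), *Cxcl1* (3.19) and *Ccl3* (2.73) and the cytokine gene *Il6* (2.70), which was not listed in either sham library. *Ifnb1*, also on the list of target genes, was not listed in any library. None of the target genes, inhibitors, kinases or transcription factors passed the test between the infarct groups (0 by limma, and 3, 1, 2 and 2 genes at an unadjusted p under 0.05), and the median log2 difference of the target genes was 0.03. *Ccl2* was at 120.82 and 147.28 FPKM in WT MI hearts and 81.80 and 78.12 in those labelled Card9 KO MI, and *Cxcl1* at 13.87 and 14.27 and at 8.61 and 6.66, both without overlap. Of the 11 target genes 4 were lower without overlap in Card9 KO MI and 3 were higher (*Cxcl10*, *Ccl3* and *Ccl4*, with log2 differences of 1.17, 0.40 and 0.25), against 21.9% and 30.8% of all genes tested.

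**Figure D4:**
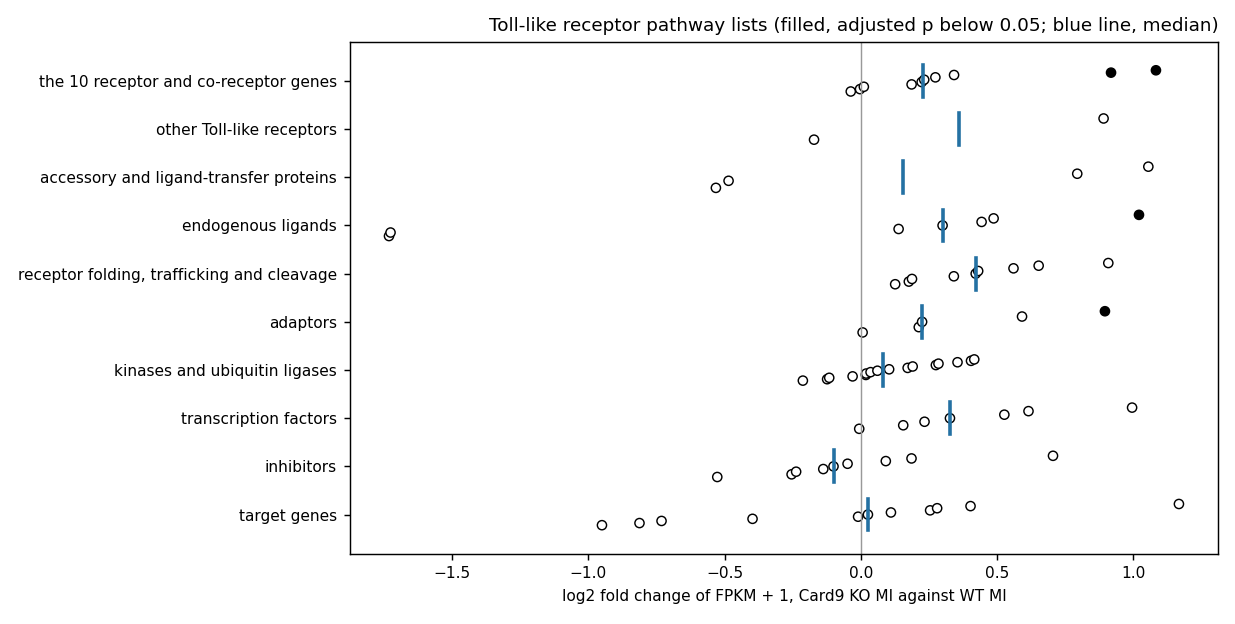
Log2 difference in log2(FPKM + 1) between Card9 KO MI and WT MI (horizontal axis, log2 units) for the 10 genes and the tested genes of the 9 pathway lists (vertical axis; points, single genes, filled where the adjusted p was below 0.05; blue lines, medians). Besides Tlr7 and Tlr9, Fn1 and Pik3ap1 are filled, all 9 points of the folding, trafficking and cleavage list lie above 0, and S100a8 and S100a9 of the ligands lie farthest below it.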

How the data were processed

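RNA-seq of mouse heart was analysed in 3 groups of 2 libraries, with groups and replicate numbers taken from the labels. The authors extracted RNA with Trizol, enriched poly(A) RNA, sequenced it on an Illumina HiSeq, mapped it to mm9 with BWA and Bowtie2 (submitters' processing notes) and deposited FPKM values per NCBI gene number, to 2 decimals. Annotation and strand use are not given in the sources used here. Genes not listed were set to 0.

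Genes that reached an FPKM of 1 in 2 or more libraries (13120) were tested on log2(FPKM + 1), a scale that understates changes of low genes, with limma 3.58.1 in R 4.3.3 (lmFit, eBayes with trend, 3 groups in one fit, Benjamini-Hochberg adjustment, calls at an adjusted p below 0.05). An exact two-sided permutation test of 2 against 2 libraries cannot give a p under 0.333, so none was run. Fragments per library were estimated from the spacing of low FPKM values. Since 63.8% to 68.3% of these came out whole within 0.1 fragments, counts were not rebuilt and no count test was run. Estimates cover counting error only. Symbols were matched for 17390 of 17441 gene numbers through a GRCm38.p6 table, used for names and promoters. Gene positions are of mm9 (GENCODE). The rest was done in Python 3.11.15 (pandas 2.3.3, numpy 2.4.6, matplotlib 3.10.9).

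The 10 genes and the lists were chosen with earlier results of these data known. Named are the 10 genes, *Card9*, up to 4 called genes per list with the largest change, list genes listed at 0, and up to 3 genes nearest in profile. *Tlr5*, *Tlr11*, *Tlr12*, *Siglech*, *Pdgfra*, *Cd163*, *Ly6c2*, *Ccr2*, *Plac8*, *Cxcl10* and *Ccl4* were named after their values were seen. The settings tried were other values added to the FPKM (0.1 and 5), other filters (none, and a mean FPKM of 5 or more), upper-quartile and quantile scaling, scaling that leaves out the 100 most abundant genes, a fit on the 2 groups compared, eBayes without trend, a fold change of at least 2, the replicate number as a block, and each library left out in turn.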

Additional observations from a re-analysis of the deposited data

How the results depend on the processing

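No difference called for the 10 genes changed direction under the settings tried. Of the 10 genes, 8 were called in WT MI against WT Sham and 8 in Card9 KO MI against WT Sham. Both counts were 5 when a mean FPKM of at least 5 was required, which left 7 of the 10 genes in the test. Leaving out 1 library gave 6 to 9 calls in the first and 7 to 8 in the second. In Card9 KO MI against WT MI, 2 were called. This count was 1 with eBayes without trend, a fit on the 2 groups compared, a mean FPKM of at least 5, quantile normalization, scaling that left out the 100 most abundant genes, or a fold change of at least 2. It was 0 with no filter on low values, an added FPKM of 0.1 or upper-quartile scaling, and from 0 to 0 without any 1 library, by limma, with 2 or 3 genes at an unadjusted p under 0.05 in each. The cause was not tested. In the main fit, 2 of the 10 genes and 2629 of the 13120 genes tested were at an unadjusted p under 0.05 here (limma), about the same share.

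The pathway list genes called in Card9 KO MI against WT MI numbered 2. They numbered 0 without trend or without filter, 1 with an added FPKM of 0.1 or a fold change of at least 2, 6 with an added FPKM of 5 or a mean FPKM of at least 5, and 0 to 4 without 1 library. The 184 calls over all genes in that comparison became 58 without trend, 12 without filter, 80 and 312 with an added FPKM of 0.1 and 5, 284 at a mean FPKM of at least 5, 96 with a fold change of at least 2, and 9 to 147 without 1 library, with 34 and 110 without Card9 KO MI replicate 1 and 2 and 9 and 26 without WT MI replicate 1 and 2. The 4869 calls in WT MI against WT Sham fell to 1707 with a fold change of at least 2 and were 2939 to 4749 without 1 library, lowest without WT MI replicate 1, and the 6444 in Card9 KO MI against WT Sham were 2544 with that fold change. Per summed pan-leukocyte in place of macrophage markers, 2 rather than 1 of the 10 genes were higher in both Card9 KO MI libraries (4.5% against 2.39% of all genes tested).

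Over all comparisons and settings, 43 values of the 10 genes lost their call, 6 gained one and 421 stayed on their side of the threshold, and for the list genes 84 lost, 28 gained and 3230 stayed.

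With the replicate block the calls among the 10 genes were 8 in each infarct group against WT Sham and 0 between the infarct groups. In Card9 KO MI against WT MI, 2 of the 10 genes and 2588 of the 13120 genes tested were at an unadjusted p under 0.05 (limma). The calls over all genes there were 71, and *Tlr7* and *Tlr9* had adjusted p-values of 0.0801 and 0.0746. Deviations of same-numbered libraries from their group means correlated at -0.0083 to 0.0204. This shows no clear shared deviation, but it cannot tell whether same-numbered libraries were handled together.

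Depth limits the sham values. In WT Sham *Tlr6*, *Tlr1*, *Tlr9*, *Ly96* and *Tlr13* each had an estimated 18.6 fragments or fewer.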
